A study of Mus musculus with 6 samples.

Results

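Open chromatin far from gene starts was not spread evenly in S1 proximal tubules of the mouse kidney: 1064 stretches of the genome each held 5 or more distal open regions close together. These 1064 clusters held 7065 of the 38187 distal regions found in every library, or 18.5%. A region was distal when its strongest point lay over 2 kb from every annotated transcript start, and neighbours were joined when at most 12.5 kb separated them. The other distal regions lay in groups of 2 to 4 (17476 regions, 45.8%) or alone (13646 regions, 35.7%). The clusters were chosen by measured values, presence in all 6 peak lists, and were ranked by the strength of their peaks within each list, so their number, size and strength are descriptions and carry no test. The rule treated the 6 libraries alike and did not use the difference between the operations.

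Chromatin was profiled by ATAC-seq, in which a transposase cuts accessible DNA and inserts sequencing adapters. The mice were wild-type male C57BL/6 animals of 7 weeks from Taconic, and their tubules were collected 24 h after surgery. The surgery was either a sham operation (Sham) or the excision of 1 kidney, a unilateral nephrectomy (UNx), with 3 libraries for each. The comparison asks how chromatin in the remaining kidney's tubules differs 24 h after the loss of the other kidney. Each library was made from 3 tubules dissected by hand, and nothing in the labels says that every library came from a different mouse, so p-values measure the spread between these samples, which may be technical.

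Strength is given here as a percentile rank: peaks of a library were ordered by the authors' −log10 q value, every list was cut to the 77355 strongest peaks, the length of the shortest list, and a peak near 100 was among the strongest of its own library. A region not among those peaks got 0. The rank is a position within a library, so a rise of 1 region means that other regions of the same library fell in rank. Read depth is unknown, and fewer open cells and less opening per cell cannot be told apart in such pooled tissue. The strongest region within 1 kb of a start was present in all 6 lists for 8 of 8 S1 marker genes (median rank 88.7, from 65.1 at Slc22a6 to 95.2 at Slc4a4) and in none for the immune markers Ptprc, Cd68 and Cd3e. The median rank was 3.95 over 3 endothelial markers and 0 over 3 stromal ones, of which Col1a1 stood at 65.1. It was 44.4 over 3 podocyte markers and 66.5 over 6 markers of the thick limb, distal tubule and collecting duct, where only Aqp2 was at 0. UNx 3 had the strongest peaks (median −log10 q 26.5) and Sham 2 the weakest (12.1).

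Enhancers are stretches of DNA away from gene starts where transcription factors bind and raise the transcription of genes on the same chromosome. In many cell types they lie in dense groups around genes that set the identity of the cell, and such groups are often called enhancer clusters or super-enhancers when they also carry marks of activity. ATAC-seq shows that DNA is open and says nothing of activity or of which gene is served. A cluster is therefore named only by the protein-coding gene that held more of its summits than any other, which need not be a majority. Ties went to the gene whose start was nearer the cluster's middle. Where no summit lay in a coding gene, the nearest coding start gave the name. The S1 segment reabsorbs glucose, amino acids, phosphate, bicarbonate and filtered proteins, burns fatty acids for energy, and relies on factors such as HNF4A for its identity.

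The sequences that the descriptions turn on are shown first. They were read from the reference genome GRCm38.p6 (RefSeq) on the plus strand, not from the libraries. Capitals mark a match to 1 of 16 short strings typical of a family of transcription factors, and 7 of the 9 windows of 101 bases shown held none. The strongest regions of the clusters of Arid1b, Igf1r, Ppara and Vdr, all described in the results, were centred on the following 101 bases, and the capitals in Arid1b are the MAF string TGCTGAC.
Arid1b, chr17:5189910-5190010: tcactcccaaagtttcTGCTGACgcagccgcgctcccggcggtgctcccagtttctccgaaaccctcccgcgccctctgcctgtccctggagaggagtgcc
Igf1r, chr7:68097197-68097297: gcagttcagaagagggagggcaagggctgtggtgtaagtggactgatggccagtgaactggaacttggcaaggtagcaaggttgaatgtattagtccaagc
Ppara, chr15:85664638-85664738: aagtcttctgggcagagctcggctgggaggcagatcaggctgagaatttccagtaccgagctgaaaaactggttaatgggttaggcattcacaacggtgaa
Vdr, chr15:97938703-97938803: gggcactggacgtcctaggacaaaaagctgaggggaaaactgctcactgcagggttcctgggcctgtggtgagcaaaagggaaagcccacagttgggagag

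A further set shows regions whose rank differed between the operations: the called region of largest difference in the Parva cluster, the only cluster past the test, a pair of the 5 largest rises (Phldb2 and Bcas1), and the largest falls, Bcl3 and Fbln1. The capitals in Fbln1 are the forkhead string on the minus strand.
Parva, chr7:112614191-112614291: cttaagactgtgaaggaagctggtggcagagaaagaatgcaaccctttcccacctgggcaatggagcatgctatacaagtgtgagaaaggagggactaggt
Phldb2, chr16:45893075-45893175: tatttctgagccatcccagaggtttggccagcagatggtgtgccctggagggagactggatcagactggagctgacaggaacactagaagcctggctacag
Bcas1, chr2:170482270-170482370: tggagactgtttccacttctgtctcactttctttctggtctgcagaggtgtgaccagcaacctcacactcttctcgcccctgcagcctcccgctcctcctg
Bcl3, chr7:19849704-19849804: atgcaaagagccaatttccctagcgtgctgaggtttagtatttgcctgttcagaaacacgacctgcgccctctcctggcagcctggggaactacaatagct
Fbln1, chr15:85245638-85245738: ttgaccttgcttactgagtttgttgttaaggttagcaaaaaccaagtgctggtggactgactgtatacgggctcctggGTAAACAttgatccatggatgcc

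The last set shows strings of the proximal tubule's own factors inside clusters of proximal tubule genes, with 10 bases on either side. Capitals mark the HNF1 string GTTAATNAT in the first Rxra region and in Acsl1, and the HNF4 direct repeat CAAAGTCCA in the others, on either strand. Of the regions in clusters named by genes of the transport, transcription factor and metabolism lists, 22 held such a string near their summit, 14 the HNF1 string and 8 the HNF4 string. Of these, 8 of the 14 and 5 of the 8 stood higher in UNx than in Sham. The regions shown all stood higher, and none of those that stood lower is shown.
Rxra, chr2:27758681-27758709: gaaagacattGTTAATAATtaatgaggcc
Rxra, chr2:27756160-27756188: gtgtctaatgTGGACTTTGgcacctgcct
Acsl1, chr8:46409472-46409500: aaagacactaATAATTAACtgaacccagg
Ppara, chr15:85754407-85754435: gagagcagtaCAAAGTCCAcctagtgagc
Nr1h4, chr10:89512720-89512748: caagaagccaTGGACTTTGccattattgc
Slc9a3, chr13:74127822-74127850: gatggtgtgcCAAAGTCCAgttagatttg

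The clusters ranged from 5 regions (418 clusters) to 23, and 105 clusters had 10 or more. The median cluster spanned 29.3 kb (range 5.32 to 128 kb), of which open regions covered 14.9%, and all clusters together spanned 34.4 Mb. The threshold split a continuous range. There were 856 groups of 4 regions just outside it, and their summed ranks (68.3 to 359) overlapped those of the 418 clusters of 5 just inside it (125 to 418). The groups of 4 with the highest sums lay at Dgat2 (359), Tspan33 (338) and Spint1 (336), and the clusters of 5 with the lowest at Bicral (125), Angpt1 (130) and Cdk18 (139). The median rank of the clusters' regions over the 6 libraries was 51.7 to 54.2 in the size classes, against 51.4 for single distal regions, and their median width was 640 to 664 bp, against 671 bp.

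The clusters' regions lay mostly inside coding genes (67.9%), and the genes that held them were often long. In 851 clusters at least 1 summit lay in a protein-coding gene, and in 213 none did. The naming gene held all summits in 517 clusters, and in some others only a minority of them. The share of regions inside a coding gene went from 51.1% of single regions to 79.3% of regions in clusters of 13 or more. Host genes had a median length of 92.7 kb, against 17.4 kb for all coding genes. Of 21911 coding genes, 4.23% named a cluster, from 0.954% of those under 10 kb to 16.9% of those of 200 kb or more, so length has to be read beside every share that follows. Genes that named a cluster had an open region at their start more often than other coding genes (95.3% against 64.7%), while among genes with such a region the median rank at the start differed little (88.1 against 85.4). In all, 927 genes named the 1064 clusters, and 109 of them named more than 1. Glis3, a zinc finger transcription factor, named 6 clusters with 40 regions, and Rere, a nuclear receptor corepressor, named 5 with 43. Clusters were densest on chromosome 19 (8.79 per 10 Mb, with 28.9% of its distal regions). Among chromosomes that held any they were sparsest on X (0.526 per 10 Mb, with 7.83%), and chromosome Y held none.

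The 10 clusters with most regions lay at Arid1b, Igf1r, Shb, Kcnk5, Macrod1, Ppara, Nav2, Itpr1, Xylt1 and Arid5b. Arid1b, a subunit of the SWI/SNF chromatin remodelling complex, held the largest, with 23 regions in introns at chr17:5125073-5252741. Igf1r, the receptor for insulin-like growth factor 1, held 21 intronic regions at chr7:68020113-68131745. Shb, an adaptor protein of tyrosine kinase receptors, named 21 regions at chr4:45421908-45523363, 20 of them inside the gene. Kcnk5, a potassium channel of the proximal tubule, named 18, of which 7 were inside the gene. Macrod1 and Ppara named 17 each, Nav2 and Itpr1 16, and Xylt1 and Arid5b 15. Ranking by summed rank kept 8 of these 10 and brought in Col18a1 and Afap1l2, whose 14 regions each were stronger on average (68.7 and 65.2) than the 50.4 of Arid1b. Both orders put Arid1b, Igf1r and Shb first.

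The regions of one cluster differed widely among themselves. In the Arid1b cluster the mean rank over the 6 libraries ran from 15.9 to 98.6, in Igf1r from 18.3 to 93.2 and in Shb from 2.31 to 87.0. The ranks of neighbouring regions in a cluster were almost unrelated (r = 0.0123 over 6001 pairs). The strongest Arid1b region, whose centre is printed with the sequences, stood at 98.7 in Sham and 98.6 in UNx and hardly differed. The region at 36.5 kb into that cluster stood at 20.0 and 51.5 (limma adjusted p = 0.124). Strong and weak regions lay intermixed along the clusters, as the maps of Igf1r, Ppara, Vdr and Parva show.

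**Figure D1:**
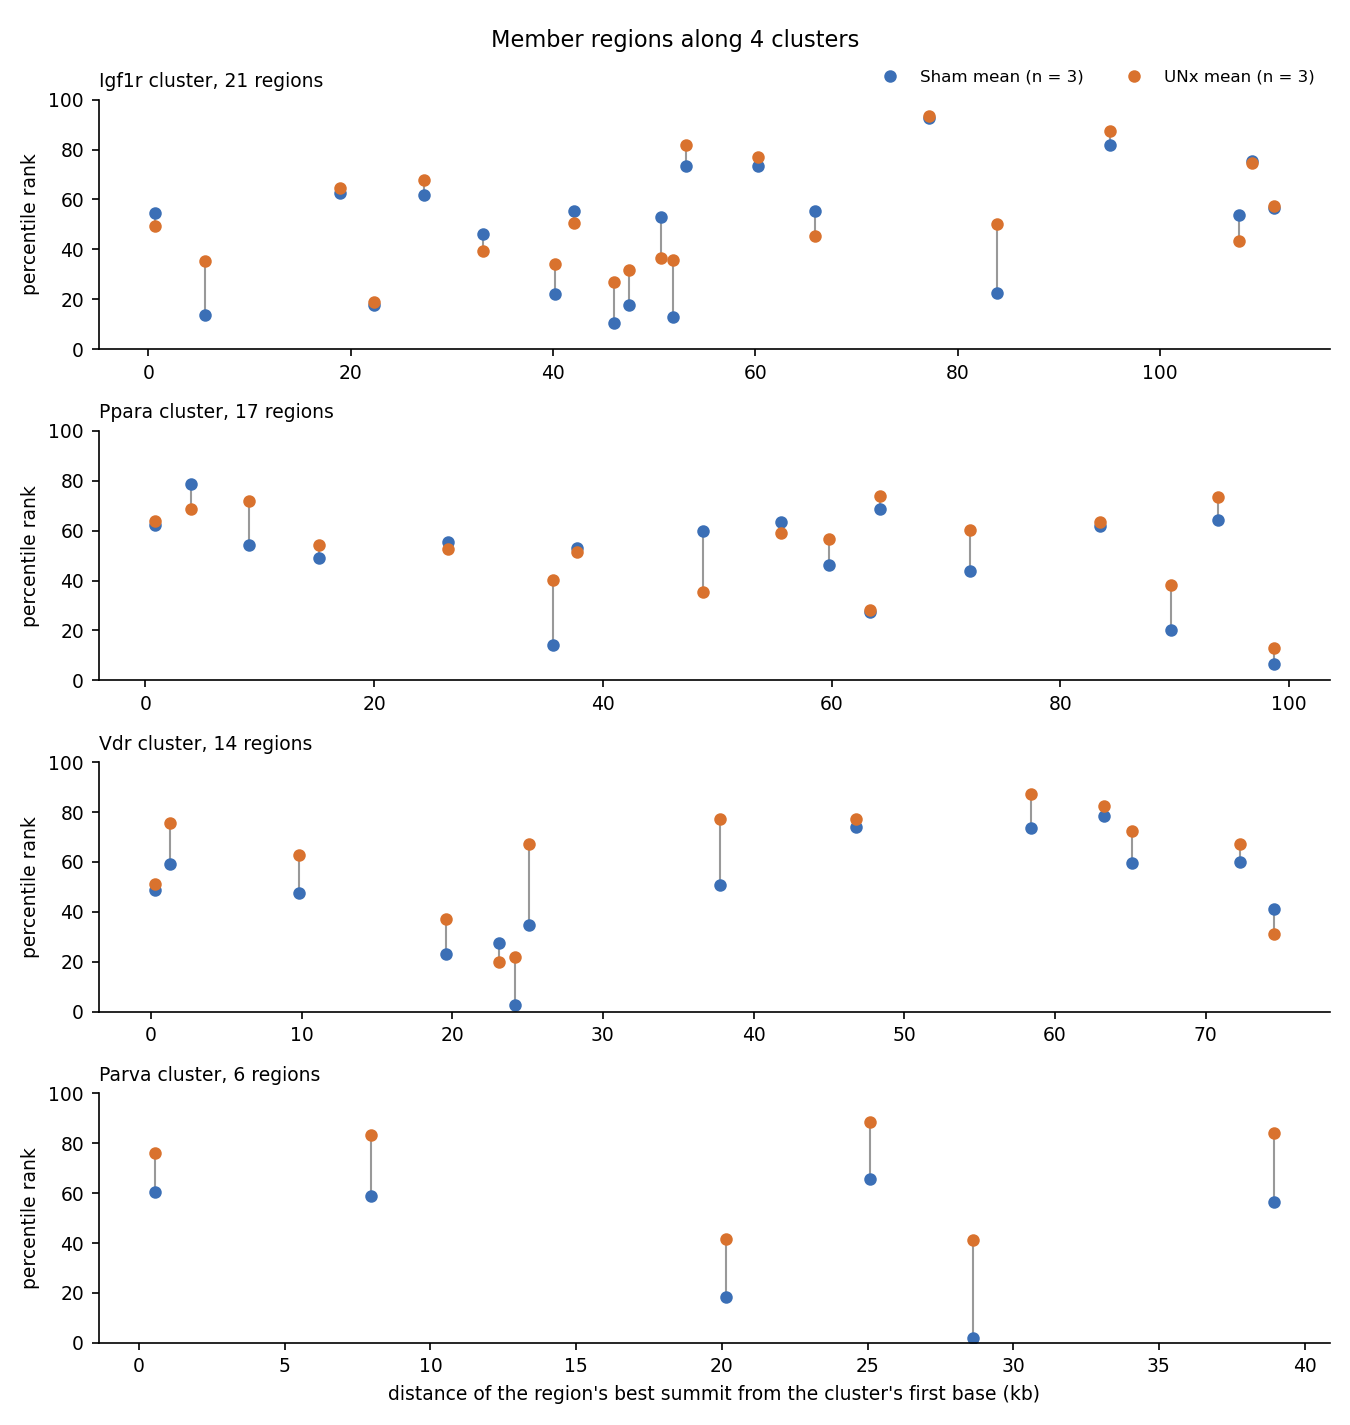
Mean percentile rank in Sham (blue) and UNx (orange), n = 3 libraries each, of every member region along the clusters of Igf1r, Ppara, Vdr and Parva; the x axis is the distance in kb of the region's best summit from the first base of the cluster and grey lines join both means. In the Parva cluster all 6 regions were higher in UNx, and in the Vdr cluster 12 of 14 were, while Igf1r and Ppara held regions that were higher and regions that were lower.

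Many genes of the proximal tubule lists named a cluster, and no gene of the lists of other nephron segments and non-epithelial cells did. All lists were chosen with earlier results of these data known, so their shares are descriptions, and differences between them were not tested. The transcription factor list of the proximal tubule had 18 of 42 genes that named a cluster (42.9%), the adhesion and epithelial structure list 12 of 25 (48.0%), the transport list 13 of 38 (34.2%), the metabolism list 9 of 42 (21.4%) and the growth and size control list 7 of 38 (18.4%). Endocytosis and lysosome genes gave 3 of 18 and injury and immediate early genes 4 of 27. None of 25 genes of other nephron segments and none of 25 genes of non-epithelial cells named a cluster. Of all coding genes 4.23% did, with 1.97% of those of 10 to 25 kb and 4.12% of those of 25 to 50 kb. At such shares a list of 25 genes can readily hold none. Neither absence therefore sets its list apart from coding genes of similar length. The adhesion genes were long (median 131 kb) and the transport genes short (28.9 kb), beside medians of 24.3 kb for the other nephron segments and 44.5 kb for the non-epithelial genes. The last list also lacked open starts, with a median rank of 1.92 there, against 19.3 for the other nephron segments and 72.2 to 88.3 in the remaining lists.

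**Figure D2:**
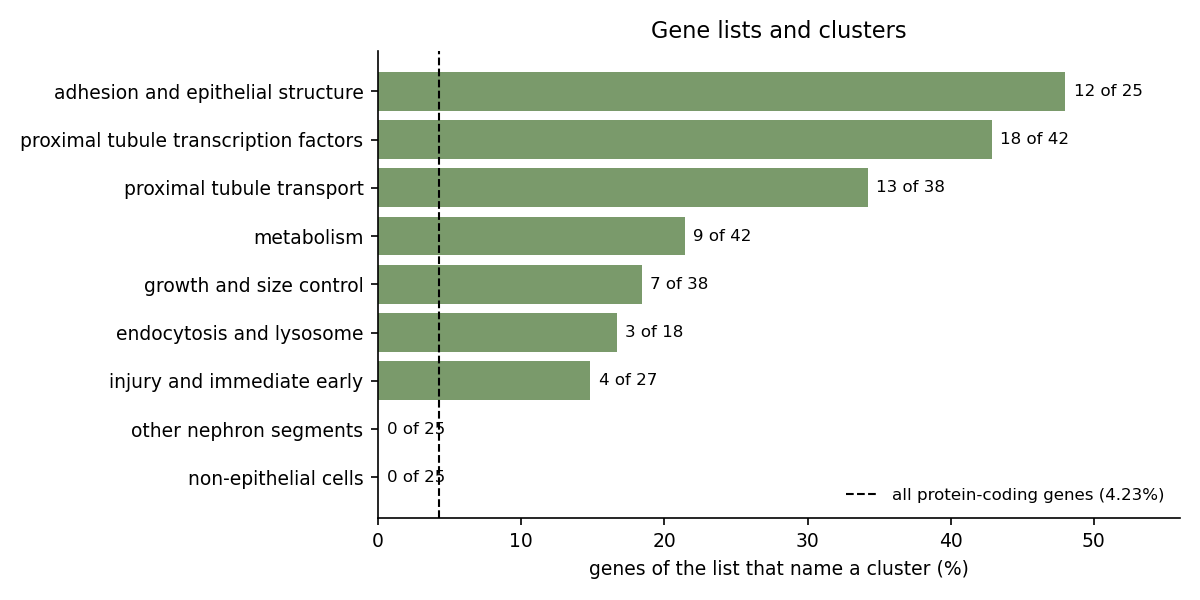
Share of the annotated genes of each list that named at least 1 cluster (bars, in percent, with the counts beside them), and the share over all protein-coding genes (dashed line, 4.23%). The 2 lists of other nephron segments and non-epithelial cells stand at 0. All lists were chosen with earlier results of these data known.

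The 18 genes of the transcription factor list named 23 clusters, with a median of 6 regions. Esrrg, the estrogen-related receptor gamma, which drives mitochondrial genes, named 3 clusters with 19 regions. Ppara, the fatty acid sensor that switches on fatty acid oxidation, named 17 regions over 98.9 kb, and 7 of their summits lay in the long non-coding RNA Lncppara upstream while 4 lay in Ppara itself. Ppargc1b, a coactivator of such receptors, named clusters of 14 and 5 regions, its relative Ppargc1a named 5, Nr1h4 (the bile acid receptor FXR) 6 and 5, and Rxra, their common partner, 7. Cux1, a homeodomain factor, named 12, and Pax8, a factor of kidney development, and Klf9, a target of glucocorticoids, named 10 each. The Klf9 cluster lay outside the gene, 72085 bp from its start. Of the transporters, Slc5a10 and Slc4a4, the basolateral bicarbonate exporter, named 10 regions each (Slc4a4 also a second cluster of 6), and Slc6a19, the neutral amino acid transporter, 6. Among metabolic genes Vdr, the vitamin D receptor, named 14 and Pck1, the key enzyme of gluconeogenesis, 10.

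Group size went with the direction of the difference between the operations. The median UNx minus Sham difference in rank was −2.49 points for single distal regions, −0.53 for pairs, 0.66 for groups of 3, 0.96 for groups of 4 and 1.77 for clusters of 5. It went on to 2.64 for clusters of 6 to 7, 3.36 for 8 to 9, 3.46 for 10 to 12 and 4.96 for 13 to 23, where 28 of 29 clusters stood higher in UNx. Over all clusters the median difference was 2.60 points and 729 of 1064 stood higher (68.5%), against a median of −1.10 and 45.1% of all 21677 groups of any size. Groups of 1 region were most of those groups, and the mean over many regions scatters less than 1 region does.

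The libraries of both operations fell on opposite sides when all clusters were set against single regions. The median rank of the clusters' regions minus that of single distal regions was −2.06, −0.77 and −2.57 points in Sham 1 to 3 and 2.40, 2.01 and 9.25 in UNx 1 to 3. The 3 UNx values lay above the 3 Sham values, and UNx 3, the library with the strongest peaks, stood far above the rest. Its part in the result was not tested beyond leaving it out, which left a median difference of 1.79 in clusters and −1.53 in single regions. The order held within classes of strength: among regions of mean rank 40 to 60 the median difference was 3.56 in clusters and −3.89 in single regions, and among those over 80 it was 0.83 and −0.18. It held among regions with 50% to 55% G and C bases (2.61 and −1.86). Width moved with it too: the medians of clusters and single regions were 2.01 and −6.61 at widths of 300 to 600 bp and came together at 1200 bp or more (2.93 and 1.72). Ranked by the authors' fold enrichment in place of −log10 q, the clusters' median difference was 0.31, single regions stood at −0.06, and 52.3% of the clusters stood higher.

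**Figure D3:**
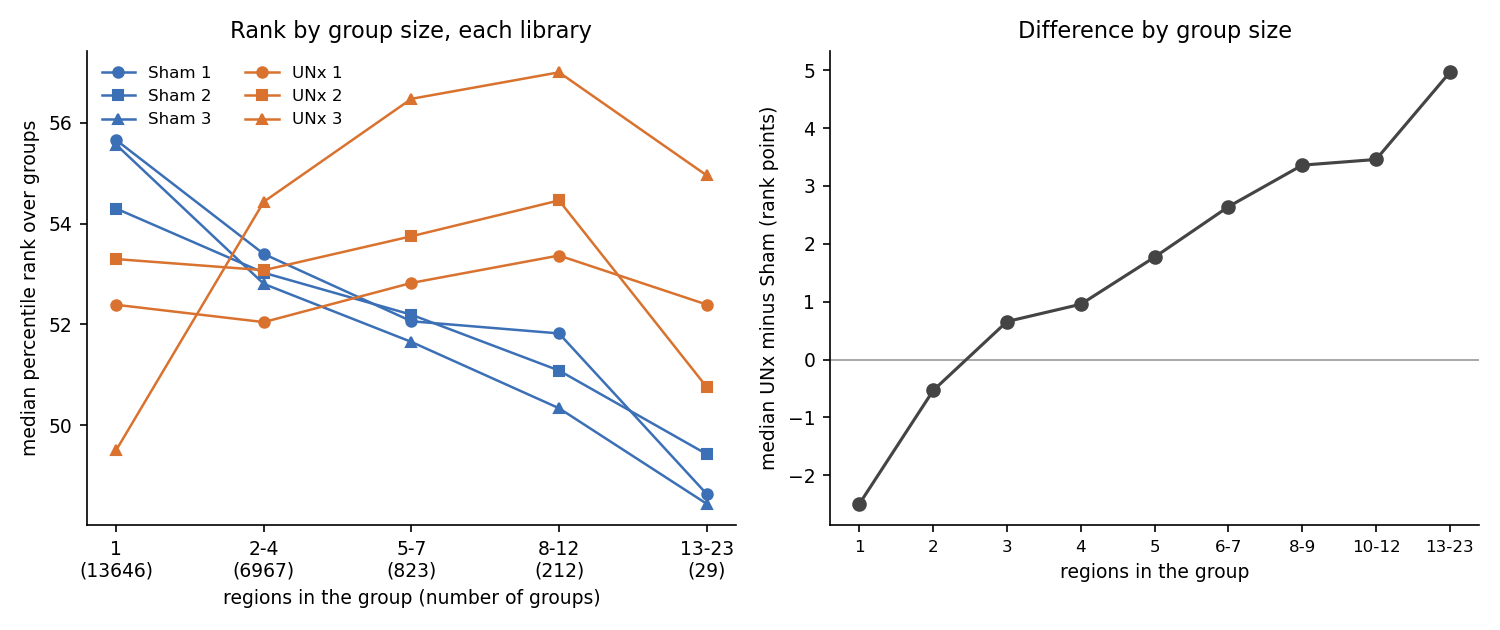
Left, median percentile rank over groups of distal regions by the number of regions in the group, 1 line per library (Sham blue, UNx orange; the number of groups stands under each class; the y axis does not start at 0). Right, the median UNx minus Sham difference in rank points by group size. The difference goes from −2.49 for single regions to 4.96 for clusters of 13 to 23 regions.

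By the test of each cluster, 1 cluster differed between the operations. Limma was fitted to the mean rank of all 21677 groups of distal regions, and 8 of them passed an adjusted p of 0.05 (0.0369%), of which 1 was a cluster. At an unadjusted p under 0.05, 204 clusters stood higher (19.2%) and 41 lower (3.85%), beside 7.33% of all groups higher and 11.5% lower. In 244 clusters (22.9%) every UNx library stood above every Sham library, and in 51 (4.79%) the reverse held, beside 10.3% and 14.8% of all groups. These shares lean to UNx in clusters and to Sham in the background, as do the medians, but with an adjustment over all groups the single clusters, Parva apart, did not pass.

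The cluster that passed lay at the 3′ end of Parva, which encodes alpha-parvin, a link between integrins and the actin cytoskeleton. Its 6 regions spanned chr7:112575299-112614694, with 2 summits in the last part of Parva, 1 in an intron of the long non-coding RNA 2310014F06Rik and the rest between genes. The next coding start downstream, 64624 bp away, was that of Tead1, a transcription factor of the Hippo pathway, which controls organ size. The cluster's mean rank was 46.5, 42.4 and 42.0 in Sham 1 to 3 and 69.4, 71.6 and 66.7 in UNx 1 to 3. Every UNx library stood well above every Sham library. The difference was 25.6 points (SE 2.51, limma adjusted p = 0.0316). This call did not outlast the loss of any 1 library, without which the difference stayed between 24.4 and 27.0 points and the adjusted p ran from 0.0845 to 0.209.

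All 6 regions of the Parva cluster stood higher in UNx, by 15.6 to 39.5 points, and 3 of them passed the test over all regions. The region in 2310014F06Rik, printed with the sequences, had ranks of 51.9, 56.8 and 61.0 in Sham and 82.0, 89.1 and 81.2 in UNx (adjusted p = 0.0304 by limma). The intergenic region at 25.1 kb into the cluster stood at 75.1, 63.2 and 59.0 in Sham and at 91.0, 88.0 and 86.6 in UNx (adjusted p = 0.0362 by limma). The region in the gene at 7.97 kb stood at 50.9, 57.5 and 67.6 and at 85.8, 84.7 and 79.9 (adjusted p = 0.0419 by limma). The weakest region, at 28.6 kb, was at 0, 5.67 and 0 in Sham and at 45.3, 34.2 and 44.4 in UNx (adjusted p = 0.0714 by limma). A second cluster, of 7 regions nearer the start of Parva, stood at 51.8 in Sham and 52.6 in UNx (adjusted p = 0.941 by limma). A cluster of 6 regions within Tead1 itself stood at 47.2 ± 1.46 in Sham and 52.8 ± 2.53 in UNx (SD, n = 3, limma adjusted p = 0.260).

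Of the 12 leading clusters, 11 stood higher in UNx and in 10 of them the libraries of both operations did not overlap, but none passed the test over all groups. Over all clusters 68.5% stood higher and 22.9% had every UNx library above every Sham library, beside 45.1% and 10.3% of all groups. The leading clusters are among the largest, and of clusters of 13 to 23 regions 28 of 29 stood higher. Macrod1, which encodes an enzyme that removes ADP-ribose from proteins, stood at 54.4, 49.4 and 51.0 in Sham and 57.7, 61.1 and 61.6 in UNx (difference 8.51, SE 1.90, limma adjusted p = 0.0936). Shb stood at 43.3, 46.1 and 44.6 and at 52.1, 49.8 and 55.1 (difference 7.68, SE 1.74, adjusted p = 0.0948 by limma). Itpr1, the calcium release channel of the endoplasmic reticulum, showed the largest difference among the 12 (10.3, SE 3.04, adjusted p = 0.149 by limma), and UNx 2 at 38.9 lay only just above Sham 2 at 36.8. Arid1b stood at 47.0, 50.003 and 47.3 and at 54.1, 50.8 and 53.0 (difference 4.54), Igf1r at 48.6, 49.8 and 46.3 and at 51.6, 51.0 and 54.9 (difference 4.22). Ppara stood at 48.8, 49.2 and 48.4 and at 52.7, 50.1 and 56.8 (difference 4.39, SE 1.94, adjusted p = 0.275 by limma). The exceptions were Nav2, at 52.5 in Sham and 51.8 in UNx, and Arid5b, where the libraries overlapped. Ranked by fold enrichment, the differences of Igf1r, Shb, Ppara and Afap1l2 turned negative.

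**Figure D4:**
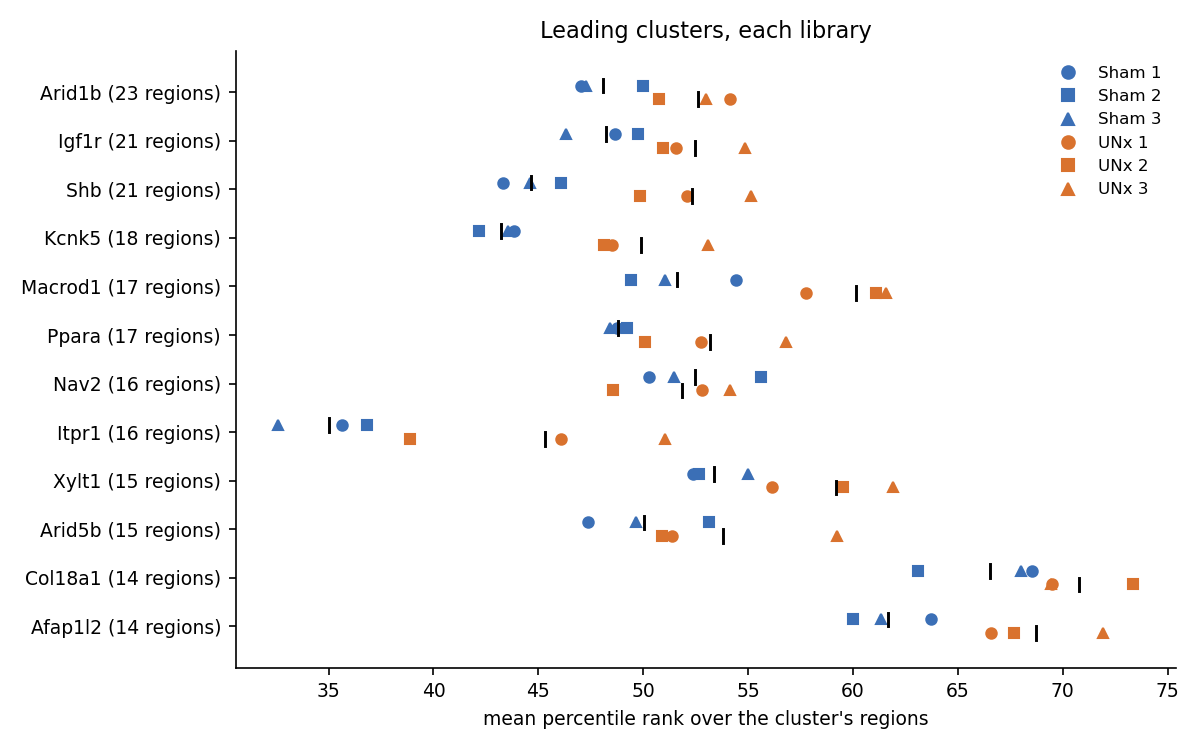
Mean percentile rank over the regions of the 12 leading clusters in each library (Sham blue, UNx orange; circle, square and triangle for replicates 1, 2 and 3; black bars are the means of 3 libraries; the x axis does not start at 0). In 10 of the 12 clusters every UNx library lies to the right of every Sham library, beside 22.9% of all clusters, and Nav2 and Arid5b overlap.

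Of the 77 clusters named by genes of the lists, 56 stood higher in UNx and none passed the test. All 9 clusters of the metabolism list stood higher (median 4.34 points), as did 20 of 23 of the transcription factor list (median 5.57) and 6 of 7 of the growth list (median 4.22). The transport list had 9 of 16 higher (median 2.30), the adhesion list 8 of 15 (2.29), the endocytosis list 2 of 3 (0.25) and the injury list 2 of 4 (4.01). Over all clusters 68.5% stood higher, with a median of 2.60. These lists were chosen with results of the same data known, and differences between them were not tested.

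Vdr and Acsl1 had the largest differences of the metabolism list. Vdr stood at 48.7 ± 3.18 in Sham and 59.3 ± 4.81 in UNx (SD, n = 3, limma adjusted p = 0.121), with 12 of 14 regions higher. The Vdr region at 25.1 kb had ranks of 39.1, 24.5 and 40.5 in Sham and 65.2, 64.5 and 71.6 in UNx (adjusted p = 0.0588 by limma), and the strongest one, printed with the sequences, 63.6, 80.4 and 77.3 and 86.6, 90.1 and 85.4. The cluster named by Acsl1, the enzyme that activates long fatty acids, lay outside the gene, 61125 bp from its start. This cluster stood at 53.8 ± 2.93 and 65.6 ± 2.06 (SD, n = 3, limma adjusted p = 0.0932), and all 5 of its regions were higher. Pck1 stood at 53.4 in Sham and 61.8 in UNx.

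In the transcription factor list, Bcl6, a repressor of transcription, had the smallest p, at 38.3 ± 1.72 in Sham and 52.8 ± 0.622 in UNx (SD, n = 3, limma adjusted p = 0.0616). Ppargc1a stood at 49.97 and 61.7 (difference 11.7, adjusted p = 0.114 by limma). The larger Ppargc1b cluster stood at 42.4 and 51.6 and the smaller at 36.4 and 49.8. The Nr1h4 clusters differed from each other, at 34.5 and 47.1 in the larger and 45.7 and 43.3 in the smaller. The 3 Esrrg clusters had differences of 2.09, 3.85 and 11.1 points. The exceptions in this list were the smaller Nr1h4 cluster, Wwtr1 (the Hippo coactivator TAZ, −3.98) and Zbtb16 (−6.05).

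Transport clusters went both ways. Slc6a19 stood at 53.1 ± 0.875 in Sham and 63.4 ± 0.994 in UNx (SD, n = 3, limma adjusted p = 0.0838), Slc9a3, the sodium/proton exchanger NHE3, at 42.6 and 49.7 with 6 of 6 regions higher, and Slc7a8 at 47.5 and 56.3. The clusters of Slc16a9 stood apart from each other: the one of 8 regions was 3.42 points higher in UNx, and the one of 5 regions went from 58.9 to 46.1, with 0 of 5 regions higher (adjusted p = 0.119 by limma). Slc5a10 stood at 64.0 and 59.6 and Slc22a12, the urate transporter, at 67.2 and 64.9. Among adhesion genes, Pard3, a polarity protein of tight junctions, stood at 60.3 ± 4.24 and 49.0 ± 0.798 (SD, n = 3, limma adjusted p = 0.0992) with 6 of 7 regions lower, and Cdh1, E-cadherin, at 72.4 and 63.2, whereas the 7-region Col4a1 cluster stood at 42.8 and 50.1. Of the immediate early genes, Jun named a cluster that lay 135320 bp from its start and stood at 60.8 and 70.0, with 6 of 6 regions higher. The Fosb cluster, with 1 of 6 summits inside the gene, stood at 72.5 and 71.8.

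Single regions gave more calls than whole clusters. Of 74762 regions of any kind tested with limma, 606 passed an adjusted p of 0.05 (0.811%). Of the clusters' 7065 regions, 7032 were tested and 71 passed (1.01%), in 66 clusters. Regions that rose were 57 (0.811%, beside 0.447% of all regions) and regions that fell 14 (0.199%, beside 0.364%). At an unadjusted p under 0.05, 12.3% of the clusters' regions stood higher and 5.86% lower, beside 9.08% and 9.49% of all regions. The libraries of both operations did not overlap in 15.8% of the clusters' regions with UNx higher and in 7.72% with UNx lower, beside 12% and 11.7% of all regions. Of the 71 called regions, 47 were intronic and 24 intergenic, beside 67.2% intronic and 28.9% intergenic over all of the clusters' regions. The risers went from a median mean rank of 47.0 in Sham to 80.9 in UNx, and those that fell from 76.2 to 41.2. The number of calls was unstable: without UNx 1 it was 1, without UNx 3 it was 6, without Sham 3 it was 10, without Sham 1 or Sham 2 it was 15, and with ranks corrected for GC content it was 0.

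The largest rises were from weak to strong. In the cluster of Phldb2, which anchors microtubules at the cell edge, the region at chr16:45892773-45893478 in an intron stood at 20.4, 18.3 and 0 in Sham and 83.7, 67.5 and 87.3 in UNx (difference 66.6, SE 9.18, adjusted p = 0.00792 by limma). An intronic region in the cluster of Slc14a2, the urea transporter of the medulla, stood at 19.1, 8.42 and 11.6 and at 78.5, 77.8 and 76.8 (difference 64.7). Both regions were weak in every Sham library and strong in every UNx library. The region at chr2:170481620-170482615 in the Bcas1 cluster, between genes, stood at 10.03, 17.96 and 32.7 and at 79.0, 80.0 and 70.3 (difference 56.2). A region near Galnt11, which starts O-glycan chains on proteins, stood at 5.68, 26.0 and 17.2 and at 74.6, 66.5 and 76.3 (difference 56.2), and one near Pim3, a kinase that promotes survival and growth, at 35.0, 16.2 and 37.1 and at 88.2, 78.4 and 87.9 (difference 55.4). These regions were picked as the largest rises, so by that choice each moved further than its cluster as a whole. The Galnt11 cluster went from 39.3 to 54.7.

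In 3 of the 5 largest falls, those of Bcl3, Fbln1 and Max, at least 1 UNx library was at 0. The region at chr7:19849516-19850030 in the cluster of Bcl3, a coregulator of NF-kappaB, stood at 64.1, 57.3 and 61.8 in Sham and 0, 33.0 and 0 in UNx (difference −50.1, SE 10.9, adjusted p = 0.0413 by limma). The region at chr15:85245330-85245978 in an intron of Fbln1, a protein of the extracellular matrix, stood at 52.5, 56.5 and 49.3 and at 9.57, 2.26 and 0 (difference −48.8). A region near Max, the partner of MYC, stood at 66.9, 63.4 and 71.6 and at 24.04, 38.9 and 0 (difference −46.3). The region near Wasf2, a driver of actin branching, stood at 64.9, 66.1 and 56.5 and at 20.6, 25.7 and 10.5 (difference −43.6), and the region near Tut7, an RNA uridylating enzyme, at 79.7, 71.7 and 76.2 and at 11.4, 50.4 and 38.2 (difference −42.5). A rank of 0 means that the region had no peak among the 77355 strongest of that library, while a weaker peak was present in every deposited list. These calls were less stable than those of the 5 largest rises. Bcl3, Fbln1, Max and Tut7 lost theirs in 12 alternative settings each and Wasf2 in 11, while the rises lost theirs in 4 to 6. Of the clusters' regions, 0 were called lower without Sham 1, Sham 2, Sham 3 or UNx 1, 1 without UNx 3 and 23 without UNx 2.

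**Figure D5:**
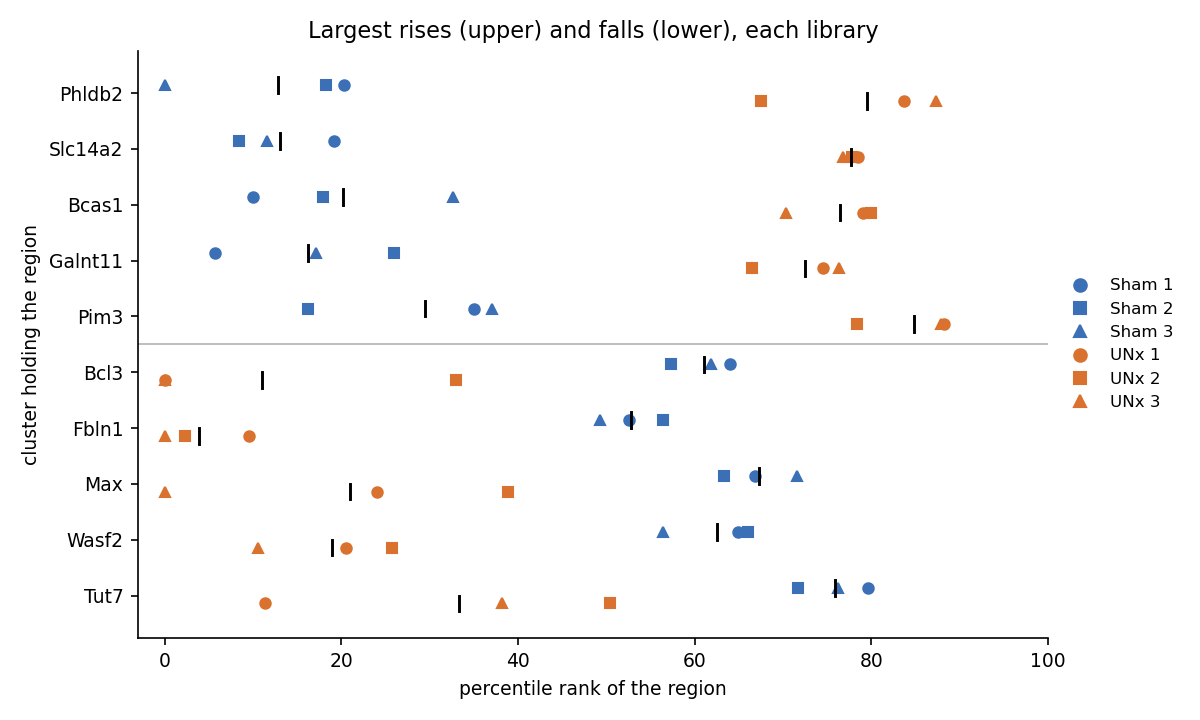
Percentile rank in each library of the 5 called regions with the largest rises (upper) and the 5 with the largest falls (lower), named by their cluster (Sham blue, UNx orange; circle, square and triangle for replicates 1, 2 and 3; black bars are means of 3 libraries). Phldb2 goes from a mean of 12.9 to 79.5 and Bcl3 from 61.1 to 11.0. The 10 regions were chosen among called regions in which the libraries of both operations do not overlap.

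Neighbours within a cluster seldom moved as one. Of 6001 pairs of neighbouring regions, 52.8% differed in the same direction, and of 1044 pairs made of the last region of one cluster and the first of the next, 52.2% did. All regions stood higher in UNx in 45 clusters and lower in 12. Only 4 clusters held more than 1 called region, and in Prrc2b and Gas6 1 of them rose and the other fell. Genes with several clusters were likewise split in part: all 5 clusters of Rere and all 3 of Msi2, an RNA-binding protein, stood higher, while 3 of 4 of Agap1 stood lower.

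Of 16 short strings of transcription factor families, most were about as frequent in the clusters' regions as in other distal regions. The HNF1 string GTTAATNAT was in 3.57% of the clusters' regions within a window of 201 bp around the summit, on either strand, against 4.35% of single distal regions and 1.52% of regions near starts. The HNF4 direct repeat CAAAGTCCA was in 2.89%, against 3.11% in single distal regions, the AP-1 string TGANTCA in 8.82%, against 8.11%, and the CTCF string CCACCAGGG in 1.03%, against 1.42%. The nuclear receptor direct repeat AGGTCANAG, which can overlap the HNF4 repeat, was in 4.05%, against 3.44%. The largest ratios were those of rare strings: the CRE string TGACGTCA was in 28 of the clusters' regions (0.396%, against 0.220%) and the NRF1 string GCGCATGCG in 5 (0.0708%, against 0.198%).

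The median UNx minus Sham difference of the clusters' regions that held a string ran from −4.15 to 4.91 points over the 16 strings, and differences between strings were not tested. Over all tested regions of the clusters the median was 2.30 points and 59.2% stood higher. Those with the HNF4 repeat had a median difference of 4.91 points, with 144 of 204 higher (70.6%), and those with the nuclear receptor repeat 4.54, with 203 of 284 higher. Regions with the HNF1 string stood near 0 (0.12, with 129 of 252 higher) and those with the CTCF string were at −4.15, with 27 of 73 higher. The medians were 4.04 for CRE, 3.98 for the ERR string, 3.92 for KLF CACCC, 3.83 for TEAD, 3.78 for the SP and KLF GC box, 2.32 for CEBP, 1.87 for AP-1 and 1.56 for ETS. They were 0.71 for MAF, 0.61 for the glucocorticoid receptor, 0.39 for forkhead and −0.46 for NRF1. Regions without each string had medians of 2.19 to 2.44. The clusters' regions with 40% to 45% G and C bases had a median of −0.10, and those with 55% or more 3.86. The part of base content in the order of the strings was not tested. The second Rxra region printed with the sequences stood at 27.9, 15.2 and 10.8 in Sham and 48.4, 57.7 and 45.2 in UNx (difference 32.4, adjusted p = 0.110 by limma), and that of Nr1h4 at 40.5, 5.14 and 0 and at 35.7, 47.4 and 52.4, where Sham 1 lay within the UNx range. A matched string is a description of the letters and shows no binding.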

How the data were processed

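The authors deposited 1 narrowPeak list per library (3 Sham, 3 UNx), not pooled; per the submitters' processing notes, cutadapt 3.4, Bowtie, SAMtools, Picard and MACS2 2.2.7.1 were used with build mm10. The deposited columns used were the score, the fold enrichment (a ratio), the −log10 q and the summit offset (another number, a position in bp). The filter behind the lists is not given in the sources used here. The lists hold no read counts, so depth is unknown and no counting interval is given. Lists held 77355 to 100999 intervals. A deeper library tends to have higher −log10 q values, hence the ranks within lists.

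Overlapping intervals (at least 1 bp) of chromosomes 1 to 19, X and Y were joined into 126099 regions, of which 59612 were in all 6 lists. Starts came from GENCODE M21 (GRCm38, all biotypes). Regions in at least 3 of the equal-length lists were tested, and so were the mean ranks of all groups of distal regions, with limma 3.58.1 in R 4.3.3 (moderated by eBayes, trend and robust, two-sided, Benjamini-Hochberg, threshold 0.05). Both fits were tested on simulated data. Differences are UNx minus Sham.

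The text names the 10 clusters with most regions, the 10 of highest summed rank, called clusters, the 5 largest rises and falls among called regions without overlap, clusters at genes of the 9 lists (280 of 282 genes annotated), and the groups nearest the threshold. Some genes that the rule selects are named nowhere in the text and their values are left out. The members, lists, strings and this rule were chosen with earlier results of these data known. The HNF sequences, the Rere, Msi2, Agap1 and Glis3 clusters, and Prrc2b and Gas6 were singled out after their values were seen. Alternatives were other gaps, start distances and overlaps, other rankings, GC correction, other variance settings, the replicate number as a block, and leaving out each library.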

Additional observations from a re-analysis of the deposited data

How the results depend on the processing

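The number of clusters followed the rule: 165 with gaps of at most 5 kb and 2039 with 25 kb, 629 over 5 kb from every start, 687 at a −log10 q of at least 5, 253 where a peak had to cover at least 50% of the merged region, and 1626 where 5 of 6 lists sufficed. Leaving out 1 library gave 1093 to 1406.

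The 71 called regions became 154 with normal scores, 47 at a −log10 q of at least 5, 30 without trend and robust fit, 13 with that cover rule, 6 with all deposited peaks, 0 with GC-corrected ranks, ranking by fold enrichment or with every merged region tested, and 1 to 49 without 1 library. The 1 called cluster became 0 ranked by fold enrichment, with all deposited peaks, without trend and robust fit and without any 1 library (0 to 0), 4 at a −log10 q of at least 5, and 9 with gaps of 25 kb.

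The median difference of the clusters, 2.60, was 0.31 ranked by fold enrichment and 5.38 with all deposited peaks, where the lists differ in length, and 1.79 to 3.30 without 1 library. Of the named clusters, ranking by fold enrichment reversed Igf1r (−1.70), Shb (−1.33), Ppara (−4.10) and Afap1l2 (−0.22). Nav2, near 0, lay between −1.77 and 1.01 without 1 library and turned positive with normal scores (0.00032), all deposited peaks (2.40) and without Sham 2 (0.95) or UNx 2 (1.01). The cause was not tested. The 23 named clusters and regions gave 322 alternative values, of which 216 kept direction and side of the threshold, 98 lost a call and 8 reversed. The 12 leading clusters had no call to lose, so values that stayed above the threshold counted as kept for them. All 98 lost calls were those of Parva and of the called regions. Parva kept its call in 2 alternatives and lost it in 12, and the Slc14a2 region kept its call in 10 and lost it in 4.

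Samples with the same replicate number did not deviate together (correlations 0.0081, −0.0999 and −0.0492), and the labels state no pairing. Whether such samples shared a day of surgery or dissection is not known and was not tested. With the replicate block 11 regions and 0 clusters were called, and 0 and 0 with the replicate block and GC-corrected ranks. Unknown depth limits weak peaks most.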
